A study of Mus musculus with 4 samples.

Results

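The genes that encode the subunits of voltage-gated sodium and calcium channels were examined in the medial prefrontal cortex (mPFC) of control and depression-like mice. Genes were taken by symbol, as the sodium channel names Scn followed by a number and a or b, and the calcium channel names Cacna, Cacnb and Cacng followed by a number. Of the 17778 genes of the table, 36 chosen in this way are described, 10 of sodium channels and 26 of calcium channels. Scn2a1, which encodes a major sodium channel of cortical axons, is written in a form that these patterns do not match, and its values are given apart. Scn4a was not analysed here.

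The animals were mice of a common inbred laboratory strain, C57BL/6 in the labels and C57BL/6J in the methods of the study, which describe them as juvenile males. Those of the CUMS group (2 libraries) had gone through chronic unpredictable mild stress (CUMS), a schedule of changing mild stressors, and were taken because behavior tests had shown depression-like signs. The control mice (2 libraries) had no such stress. Whether a library came from 1 mouse is not given in the sources used here, and selection by behavior means that the groups differ in stress and in response to stress at once. The table holds 1 value per gene and group, the authors' mean in RPKM (reads scaled by gene length and by the mapped reads of the library), and no value of a single library. No test between the groups and no error over mice was therefore possible.

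A voltage-gated sodium channel is built around an alpha subunit, which forms the pore and starts the action potential, with beta subunits that tune gating and hold the channel at the membrane. A calcium channel has an alpha1 pore, an intracellular beta subunit that brings it to the membrane, and an extracellular alpha2/delta subunit that helps its trafficking and is the binding site of gabapentin. L type channels couple activity to gene expression, P/Q and N type channels trigger transmitter release, and T type channels open near rest and support burst firing. The gamma genes were named after a subunit of the skeletal muscle channel, but most of those used in brain encode transmembrane AMPA receptor regulatory proteins (TARPs), which traffic and gate AMPA-type glutamate receptors.

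Among the members of at least 5 RPKM, Cacna2d2 and Cacng5 had the lowest CUMS levels relative to control, and the bases just before these genes are shown to place them in the genome. Sequences are from RefSeq on GRCm38.p6, the patched form of the assembly known as mm10. Each stretch starts 250 bases before an annotated start site, runs 5′ to 3′ on the strand of the gene and stops where the RefSeq gene begins. Capitals mark GC boxes, searched as GGGCGG on both strands. The Cacna2d2 stretch, chr9:107399630-107399732 on the plus strand, is 103 bases long. The Cacng5 stretch, chr11:107915056-107915305 on the minus strand, is 250 bases long.
Cacna2d2: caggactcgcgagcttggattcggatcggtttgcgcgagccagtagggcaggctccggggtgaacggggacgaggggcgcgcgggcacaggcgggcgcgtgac
Cacng5: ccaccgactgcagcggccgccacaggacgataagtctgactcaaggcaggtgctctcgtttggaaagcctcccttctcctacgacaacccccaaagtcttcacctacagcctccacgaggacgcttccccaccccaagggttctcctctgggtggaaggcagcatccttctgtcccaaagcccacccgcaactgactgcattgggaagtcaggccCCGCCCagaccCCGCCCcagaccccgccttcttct
The Cacna2d2 stretch held 15 CpG dinucleotides, against a median of 2 in the same window of all 32851 promoters, and 0 GC boxes. The full 250 bases before that start site, which run into the gene, held 34 CpG dinucleotides and 1 GC box. The Cacng5 stretch held 12 CpG dinucleotides, against a median of 6, and 2 GC boxes. A GC box was found in 10.8% of all promoters within the window of the former and in 32.7% within that of the latter. Cacng5 has another annotated start site inside the gene, and the 250 bases before it held 2 CpG dinucleotides and 0 GC boxes. Over the 28 members with an entry, which had 38 promoters, 39.5% held a GC box in the 250 bases and 2.63% held a TATAAA motif, which 12.4% of all promoters did. The cyclic AMP response element TGACGTCA was in 0 of the 38 and in 1.55% of all. These counts describe letters in the window, and several promoters belong to 1 gene.

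Of the 36 genes, 29 reached 0.5 RPKM in at least 1 group. The other 7 were Scn7a, Scn9a, Scn10a, Scn11a, Cacna1f, Cacna1s and Cacng1, with means between 0.01 and 0.46 RPKM. RPKM is scaled by gene length, so levels can be set against each other. The highest level among them was that of Cacnb3, at 129.335 RPKM in control, followed by Scn2b at 90.22. Pore genes of at least 5 RPKM lay between 5.36 and 30.43 RPKM, below Scn2b, Scn3b and Scn4b. The summed RPKM of the 36 genes was 843.04 in control and 842.215 in CUMS, a change of -0.0979%.

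**Figure D1:**
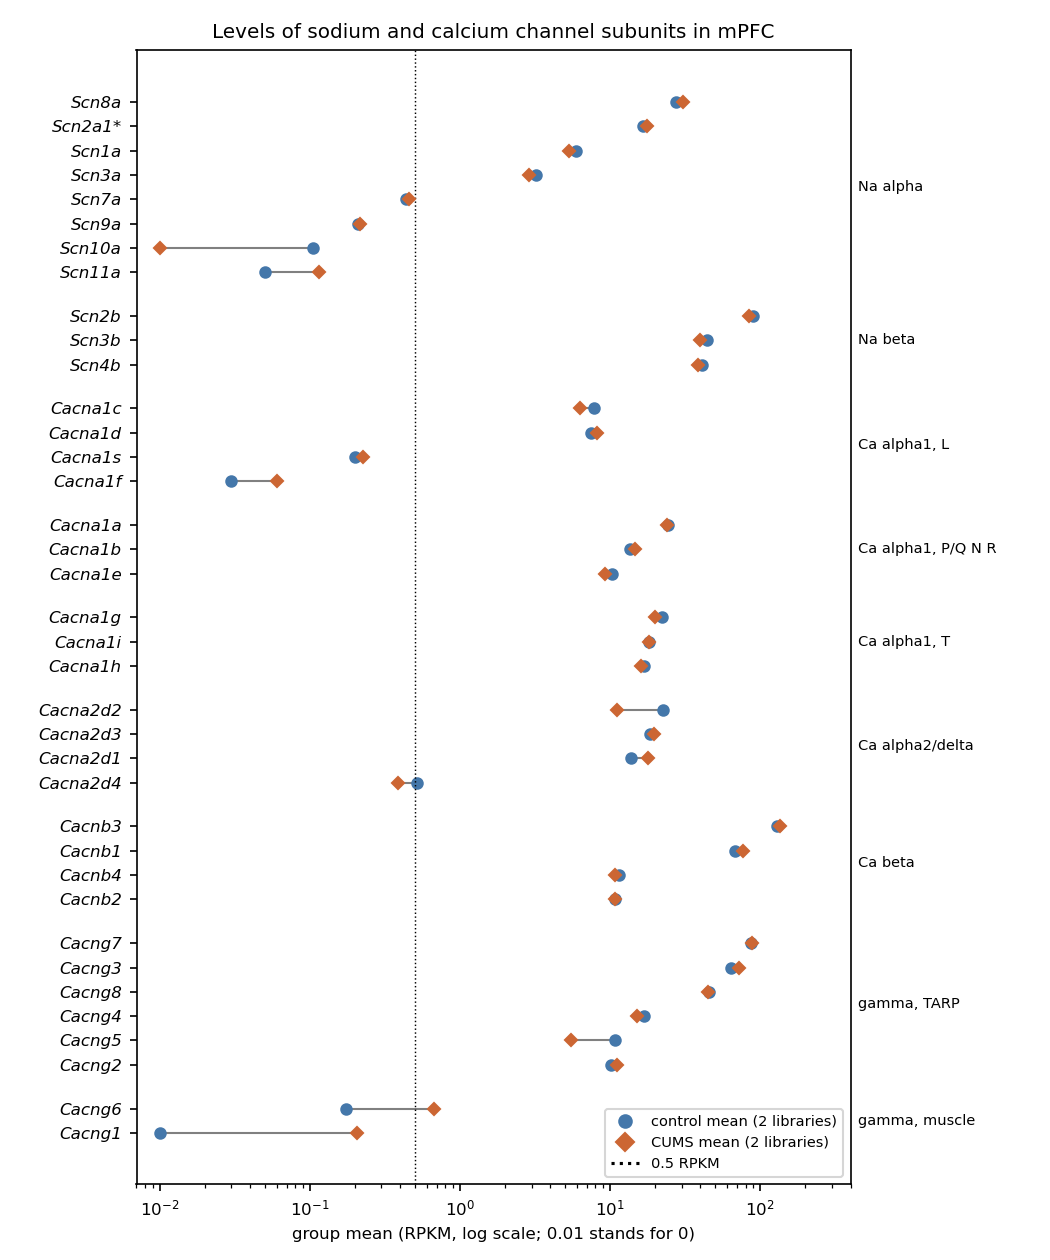
Group mean of each subunit gene in RPKM on a log axis, with genes ordered by role and by control level; circles are control and diamonds CUMS, each the authors' mean of 2 libraries with no error available, and the dotted line marks 0.5 RPKM. Most pairs of points above that line touch, while Cacna2d2 and Cacng5 lie apart with CUMS lower; the asterisk marks Scn2a1, which the naming rule leaves out, and 0.01 stands for 0.

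A ratio is given below as log2 of CUMS over control, taken on the group means, with a 95% interval. This interval is an exact binomial (Clopper-Pearson) one on the numbers of fragments estimated from RPKM and gene length. It covers counting error only, not differences between mice or libraries. A fold above 1.5, counted where at least 1 group mean reached 0.5 RPKM, was reached by 2 of the 29 genes downward in CUMS (6.90%), Cacna2d2 and Cacng5. Over all 14257 genes of that level, 4.42% were lower by this fold. The study's own list of changed mRNAs, which also applied a limit on its probability, holds Cacna2d2 but not Cacng5. That list comes from these same samples, so it is not independent of the values given here. Upward, 1 of the 29 (3.45%), Cacng6, passed the fold, against 2.78% of all genes. Cacng6 rested on an estimated 2 fragments in control and 8 in CUMS.

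At higher levels, where counting error is smaller, 2 of 26 subunit genes of at least 5 RPKM were lower by the fold and 0 were higher. The background at that level was 1.28% lower and 0.319% higher of 9397 genes. Of 47 potassium channel genes of that level (symbols starting with Kcn), 0 passed the fold in either direction, and of 73 at 0.5 RPKM or more, 2 were lower and 2 higher by the fold (2.74% each). With counts of 1 and 2 genes, these shares are descriptions. The median log2 ratio of the 29 genes was -0.03, with 11 higher and 18 lower in CUMS, beside -0.02 over all genes and -0.00 over 73 potassium channel genes. Of all 14257 genes, 6639 were higher and 7589 lower, and of the potassium channel genes 36 and 37. The median size of a difference without its sign was 0.147 for the subunits, 0.132 for all genes and 0.141 for potassium channels. At 5 RPKM or more, these sizes were 0.144, 0.103 and 0.123.

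The interval lay under 0 for 9 of the 29 genes and over 0 for 7. It lay under 0 for 16.8% and over 0 for 12.5% of all genes. These shares rise with the number of fragments, which depends on gene length as well as level. The subunit genes had a median level of 17.985 RPKM against 9.42 over all genes. At 5 RPKM or more, median levels were 18.99 RPKM for 26 subunit genes and 17.405 for all genes. The interval excluded 0 for 61.5% of these subunit genes, 35.2% of all genes and 44.7% of 47 potassium channel genes of that level. The reason for this difference was not tested.

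**Figure D2:**
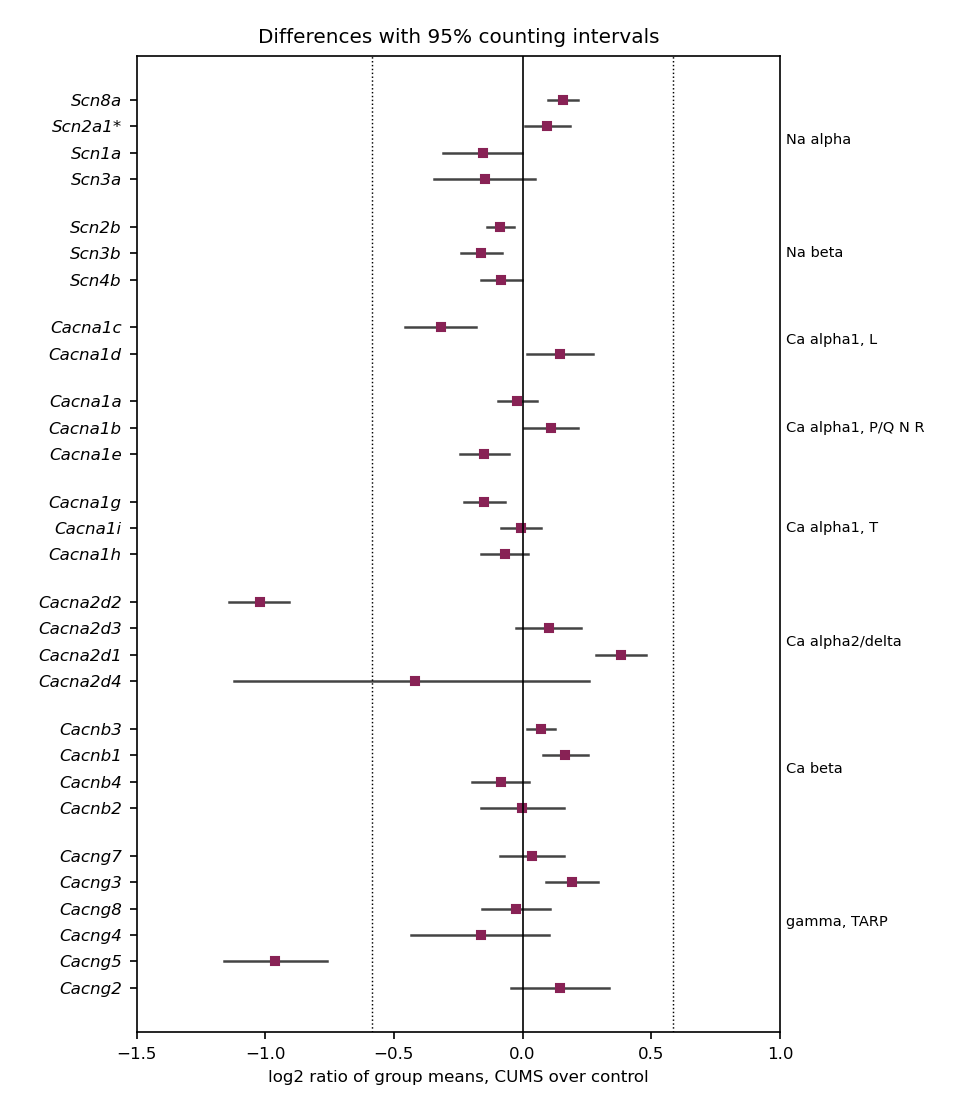
Log2 ratio of group means, CUMS over control, for the subunit genes of at least 0.5 RPKM and Scn2a1 (asterisk), ordered by role; squares are ratios, bars are 95% counting intervals from estimated fragments, and dotted lines mark a fold of 1.5. Cacna2d2 (-1.02) and Cacng5 (-0.96) lie beyond the lower line with their whole interval; Cacng6 (1.94, 2 and 8 fragments) is left out because its interval runs from -0.34 to 5.26.

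Sodium channel pores differed among themselves. Scn8a encodes Nav1.6, the main channel of the axon initial segment and nodes, and had 27.315 RPKM in control and 30.43 in CUMS. Its log2 ratio was 0.16 (0.10 to 0.21). Scn2a1, now named Scn2a, encodes Nav1.2 and had 16.5 and 17.64 RPKM, a ratio of 0.10 (0.01 to 0.18). Both genes were thus slightly higher in CUMS, by less than the 1.5 fold, in bulk tissue that does not separate cell types.

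Scn1a encodes Nav1.1, a channel on which many inhibitory interneurons rely. It had 5.97 RPKM in control and 5.36 in CUMS, and its log2 ratio of -0.16 had an interval of -0.31 to -0.00. Scn3a, which encodes Nav1.3 and is more prominent in the developing brain, had 3.2 and 2.89 RPKM. Its ratio of -0.15 had an interval of -0.34 to 0.05, so that the difference was within counting error.

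Scn10a and Scn11a, which encode channels of sensory neurons, were near the limit of detection. Scn10a had an estimated 10 fragments in control and was listed at 0.01 in CUMS, where 0 fragments allow up to 0.0314 RPKM at 3 fragments over the group, so it was at least 3.34-fold lower with its control value taken as exact. With the counting error of both groups, the interval of the log2 ratio ended at -1.18. Scn11a had 4 and 10 fragments, with 0.05 and 0.115 RPKM. The interval of Scn11a included 0.

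A cluster of sodium channel genes lies on chromosome 2, where Scn3a, Scn2a1, Scn1a, Scn9a and Scn7a follow each other between 65457118 and 66784910. In this cluster the log2 ratios lay between -0.16 and 0.10. Scn7a, which encodes a sodium sensing channel of glia and other cells, had 0.435 and 0.46 RPKM. Scn9a, which encodes the pain-related Nav1.7, had 0.21 and 0.215 RPKM. The intervals of both included 0.

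The sodium channel beta subunits Scn2b, Scn3b and Scn4b were lower in CUMS, each by less than the fold. Scn2b, which is bound to alpha subunits by a disulfide bridge, had 90.22 and 84.915 RPKM and a ratio of -0.09 (-0.14 to -0.04). Scn3b, a noncovalent partner of the pore, had 44.505 and 39.84 RPKM and a ratio of -0.16 (-0.24 to -0.08). Scn4b, linked to resurgent sodium current, had 40.9 and 38.635 RPKM and a ratio of -0.08 (-0.16 to -0.00).

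L type calcium channel genes went in opposite directions. Cacna1c encodes Cav1.2, the main L type pore of the brain, and had 7.815 RPKM in control and 6.265 in CUMS. Its log2 ratio was -0.32 (-0.46 to -0.18), and 768 fragments were estimated in CUMS. Cacna1d encodes Cav1.3, which opens at lower voltage, and had 7.42 and 8.2 RPKM with a ratio of 0.14 (0.02 to 0.27). Cacna1c accounted for 50.5% of summed L type RNA in control and 42.5% in CUMS. Neither gene passed the fold. Cacna1s of skeletal muscle and Cacna1f of retina were at or under 0.225 RPKM.

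The pores of transmitter release differed little. Cacna1a, the P/Q type pore, had 24.415 RPKM in control and 24.07 in CUMS, a log2 ratio of -0.02 (-0.10 to 0.05). Cacna1b, the N type pore, had 13.665 and 14.74 RPKM, a ratio of 0.11 (0.00 to 0.21). Cacna1e, the R type pore, had 10.28 and 9.275 RPKM, a ratio of -0.15 (-0.24 to -0.05). Their summed level was 48.36 RPKM in control and 48.085 in CUMS.

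All 3 T type pores were lower in CUMS, each by less than the fold. Cacna1g, which encodes Cav3.1, had 22.215 and 20.045 RPKM and a log2 ratio of -0.15 (-0.23 to -0.07). Cacna1h, which encodes Cav3.2, had 16.8 and 16.005 RPKM and a ratio of -0.07 (-0.16 to 0.02). Cacna1i, which encodes Cav3.3, had 18.315 and 18.24 RPKM and a ratio of -0.01 (-0.08 to 0.07). The interval lay under 0 in Cacna1g only, and after scaling CUMS to a median log2 ratio of 0 over all genes the ratio of Cacna1i was 0.01.

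The alpha2/delta genes held the largest shift of makeup among the calcium channel and TARP families of appreciable level. Cacna2d2, which encodes alpha2/delta-2 and is the gene altered in the ataxic ducky mouse, had 22.5 RPKM in control and 11.08 in CUMS. It was 2.03-fold lower, a log2 ratio of -1.02 (-1.14 to -0.91), on an estimated 1833 and 909 fragments. Of 9397 genes of at least 5 RPKM, 26 were as low or lower. Cacna2d2 lies at chr9:107399733-107529346 on the plus strand, and 1.03% of its exon bases overlap the antisense gene Gm17141, whose reads cannot be told apart where strand was not used.

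Cacna2d1, which encodes alpha2/delta-1, a main target of gabapentin, had 13.8 RPKM in control and 17.985 in CUMS. Its log2 ratio of 0.38 (0.29 to 0.48) was the highest among subunit genes of at least 5 RPKM, though under the fold. Cacna2d3 had 18.33 and 19.66 RPKM and a ratio of 0.10 (-0.02 to 0.23). Cacna2d4, known from retina, had 0.515 and 0.385 RPKM and a ratio of -0.42 (-1.12 to 0.26). The 2 genes that were higher did not make up the difference. Together Cacna2d1 and Cacna2d3 were 5.515 RPKM higher in CUMS, and Cacna2d2 fell by 11.42 RPKM in the authors' means.

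The summed alpha2/delta level was 55.145 RPKM in control and 49.11 in CUMS, a difference of -10.9%. Cacna2d2 was the most abundant of the family in control, with 40.8% of the sum, and held 22.6% in CUMS. Cacna2d1 held 25.0% and 36.6%, and Cacna2d3 held 33.2% and 40.0%. In CUMS the order was therefore Cacna2d3, Cacna2d1, Cacna2d2.

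**Figure D3:**
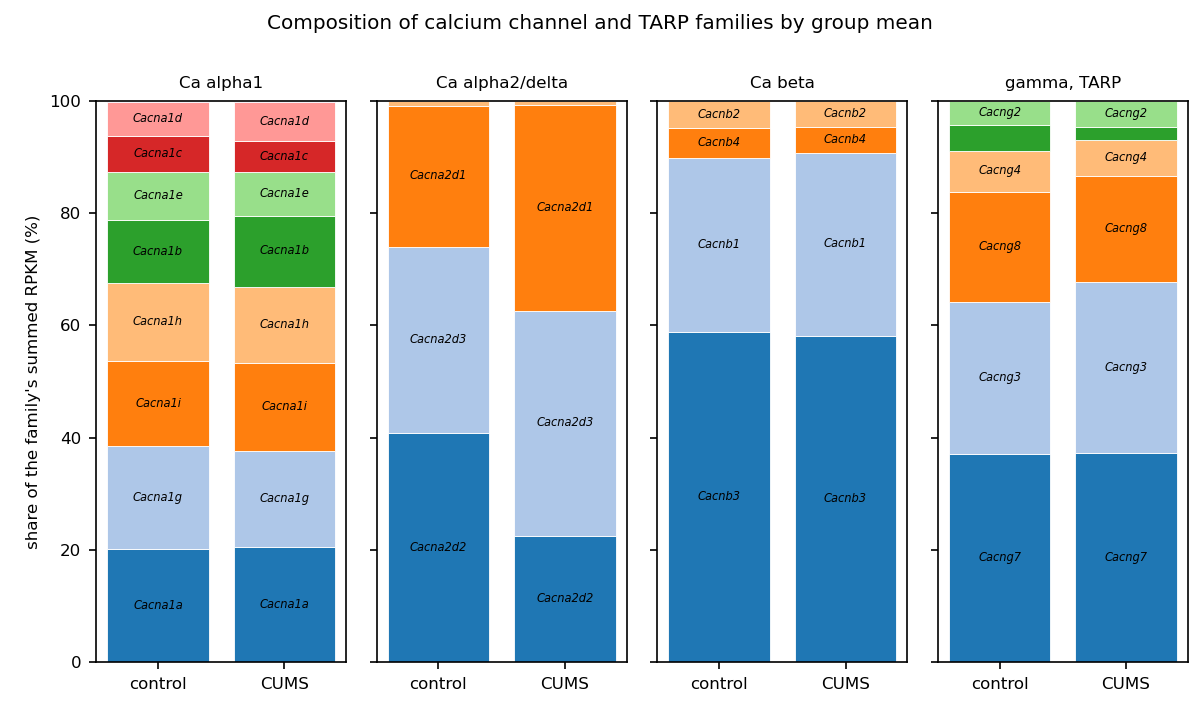
Share of each gene in the summed RPKM of its calcium channel or TARP family, in percent from 0 to 100, for the control and CUMS means; segments of at least 4% in both groups carry the gene name. The alpha2/delta panel shows Cacna2d2 at 40.8% in control and 22.6% in CUMS, while Cacnb3 holds 58.9% and 58.1% of the calcium beta panel; the unlabelled narrow segment that shrinks in the TARP panel is Cacng5 (4.59% to 2.31%).

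Calcium channel beta subunits were dominated by Cacnb3 in both groups. It had 129.335 RPKM in control and 135.85 in CUMS, a log2 ratio of 0.07 (0.02 to 0.13). Cacnb1 had 68.045 and 76.34 RPKM, a ratio of 0.17 (0.08 to 0.25). Cacnb2, known for the cardiac L type channel, had 10.8 and 10.79 RPKM, a ratio of -0.00 (-0.16 to 0.16) that became 0.01 after scaling to the median. Cacnb4, the gene altered in the lethargic mouse, had 11.455 and 10.795 RPKM, a ratio of -0.09 (-0.20 to 0.03). The family sum differed by 6.44%, carried by its most abundant genes, Cacnb3 and Cacnb1. Up to 16.0% of the exon bases of Cacnb4 overlap the transcript A430018G15Rik.

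Of 6 TARP genes, 3 were higher and 3 lower, and 1 passed the fold. That gene was Cacng5, which encodes the type II TARP gamma-5. It had 10.74 RPKM in control and 5.52 in CUMS, 1.95-fold lower, with a log2 ratio of -0.96 (-1.16 to -0.76) on 598 and 310 fragments. None of its exons overlaps another gene. The other type II TARP, Cacng7, was the most abundant of the family, with 86.695 and 88.865 RPKM and a ratio of 0.04 (-0.09 to 0.16).

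The type I TARPs differed less. Cacng2 encodes stargazin, the first TARP described, and had 10.145 and 11.21 RPKM, a log2 ratio of 0.14 (-0.05 to 0.33). Cacng3, abundant in neocortex, had 63.54 and 72.555 RPKM, a ratio of 0.19 (0.09 to 0.29). Cacng8, known from hippocampus, had 45.935 and 45.14 RPKM, a ratio of -0.03 (-0.16 to 0.11). Cacng4 had 16.965 and 15.18 RPKM, a ratio of -0.16 (-0.43 to 0.10). Cacng4 and Cacng5 are neighbours on chromosome 11, and the intervals of their ratios did not overlap. Summed TARP RNA was 234.02 RPKM in control and 238.47 in CUMS.

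The muscle type gamma genes were barely detected. Cacng6 had 0.175 RPKM in control and 0.67 in CUMS, and its log2 ratio of 1.94 (-0.34 to 5.26) rested on 2 and 8 fragments. Cacng1 was listed at 0.01 in control and at 0.205 RPKM in CUMS, 0 and 4 fragments. The counting interval of its log2 ratio started at -0.61 and so included 0. Of 4 skeletal muscle markers, Acta1 had 4.785 and 5.25 RPKM, and Ckm, Myh4 and Tnnt3 were at or under 0.14 RPKM in both groups.

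**Figure D4:**
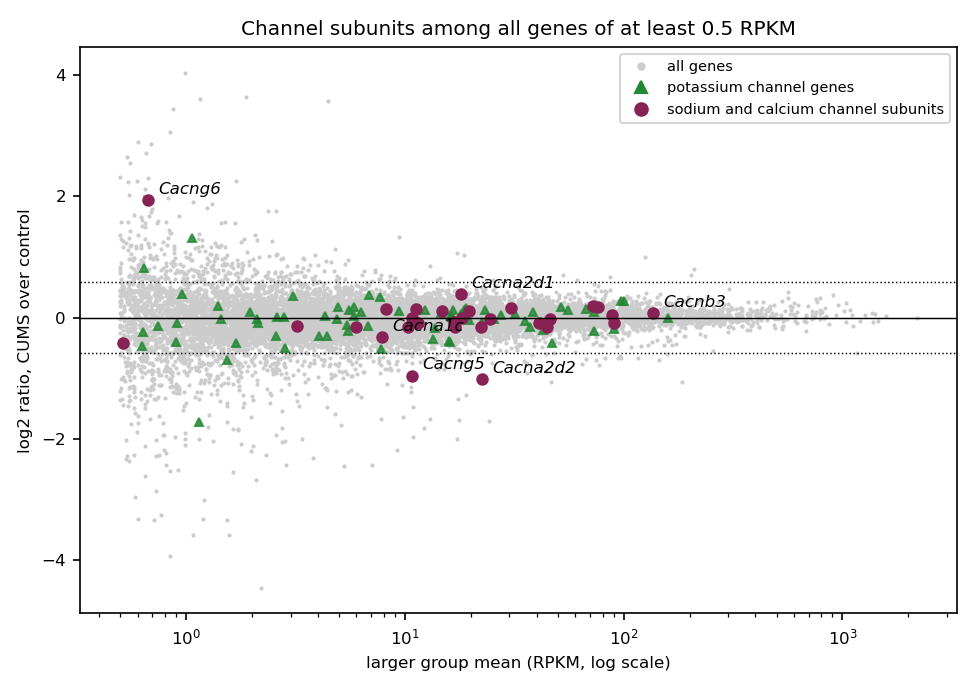
Log2 ratio of CUMS over control against the larger of the group means (RPKM, log axis) for the genes of at least 0.5 RPKM with fragments in both groups; grey points are all genes, triangles potassium channel genes and large circles the subunit genes, and dotted lines mark a fold of 1.5. The grey cloud narrows as the level rises, and Cacng6 lies high where the cloud is wide. Cacna2d2 and Cacng5 lie in its lower tail at 22.5 and 10.74 RPKM, with other genes as low or lower.

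Genes listed as partners of these channels kept within the fold where they reached 0.5 RPKM. Of 13 sodium channel partners, which anchor, modify or resemble the channels, 8 were higher and 5 lower in CUMS, with a median log2 ratio of 0.10. The most abundant was Sptbn4, the spectrin of the axon initial segment, with 69.13 and 62.575 RPKM. At 5 RPKM or more, ratios ran from -0.17 for Unc80, a subunit of the sodium leak channel complex, to 0.49 for Fgf11, a fibroblast growth factor homologous factor. The interval of Fgf11 started at -0.09.

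Calcium channel partners, which bind or regulate the channels, comprised 15 genes, of which 14 reached 0.5 RPKM. Among these, 8 were higher and 6 lower, 0 passed the fold and the median was 0.03. Calm2, a calmodulin gene, had the highest level, with 871.25 and 1033.075 RPKM. Ratios at 5 RPKM or more ran from -0.37 for Akap5, which anchors kinase and calcineurin at L type channels, to 0.28 for Ppp3ca, a catalytic subunit of calcineurin.

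The AMPA receptor auxiliary proteins outside the gamma family were 7 genes, 3 higher and 4 lower, with 0 past the fold and a median of -0.00, which was 0.01 after scaling to the median. Cnih2, a cornichon that slows AMPA receptor kinetics, was the most abundant, with 209.765 and 206.17 RPKM. Ratios at 5 RPKM or more ran from -0.14 for Shisa7 to 0.34 for Cnih3. Below that level, Shisa6 had 2.235 and 1.67 RPKM and a ratio of -0.42 (-0.70 to -0.14), the lowest of the 7. The ratio of Cacng5 was lower than that of each of these genes.

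Markers of cell types and of neighbouring regions also differed between the groups. In bulk tissue, fewer cells of a type, less tissue of a neighbouring region in the sample and less RNA per cell cannot be told apart. Markers of neocortical excitatory neurons were present in this tissue labelled as cortex, and so were those of neighbouring regions, given below. All 6 excitatory neuron markers, among them Slc17a7, were present and higher in CUMS, with log2 ratios from 0.21 to 0.39, a median of 0.31 and a sum of 1609.985 RPKM in control and 1929.945 in CUMS. All 8 GABAergic neuron markers were lower, 6 past the fold, with ratios from -0.88 to -0.20, a median of -0.63 and sums of 465.18 and 326.42 RPKM. Of 5 parvalbumin interneuron markers, 4 were lower, 1 past the fold (Syt2, -0.80), and Pvalb itself was at 0.19. Their median was -0.15, with sums of 125.62 and 117.075 RPKM. The ratios of Cacna2d2 and Cacng5 were below those of the 8 GABAergic markers, but their intervals were not clear of them all. The interval of Cacna2d2 (-1.14 to -0.91) overlapped those of Gad2 (-0.88), Dlx2 (-0.70) and Dlx5 (-0.65). The interval of Cacng5 overlapped those of several, Gad2 and Slc32a1 (-0.78) among them.

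Markers of septum and hypothalamus were lower in 8 of 8 genes, all past the fold, with ratios from -2.32 to -0.67, a median of -1.67 and sums of 210.53 and 103.295 RPKM. Olfactory bulb markers were lower in 6 of 6, 5 past the fold, with a median of -1.64 and sums of 68.85 and 31.61 RPKM. S100a5 was listed at 0.01 in CUMS, and the other 5 had ratios from -1.68 to -0.56. The ratios of Cacna2d2 and Cacng5 lay within the ranges of both the septum and hypothalamus markers and the olfactory bulb markers. In the former list only Hap1 (-0.67) lay above them, and the rest were at or under -1.34 (Zic1). In the latter list Calb2 (-0.92) and Cdhr1 (-0.56) lay above them, and the rest lay below. Striatum markers were lower in 6 of 6, 0 past the fold, with ratios from -0.45 to -0.17, a median of -0.27 and sums of 315.445 and 270.89 RPKM. Oligodendrocyte markers were lower in 6 of 6, 3 past the fold, with ratios from -0.68 to -0.40, a median of -0.58 and sums of 1707.985 and 1139.34 RPKM. Of 5 astrocyte markers, 3 were higher and 2 lower, 0 past the fold, with ratios from -0.41 to 0.12, a median of 0.07 and sums of 305.58 and 302.94 RPKM. Several of these markers, all 8 of septum and hypothalamus among them, are genes that the study itself lists as changed in these samples, so their direction is not independent evidence. The part of these markers in the differences of Cacna2d2 and Cacng5 was not tested.

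**Figure D5:**
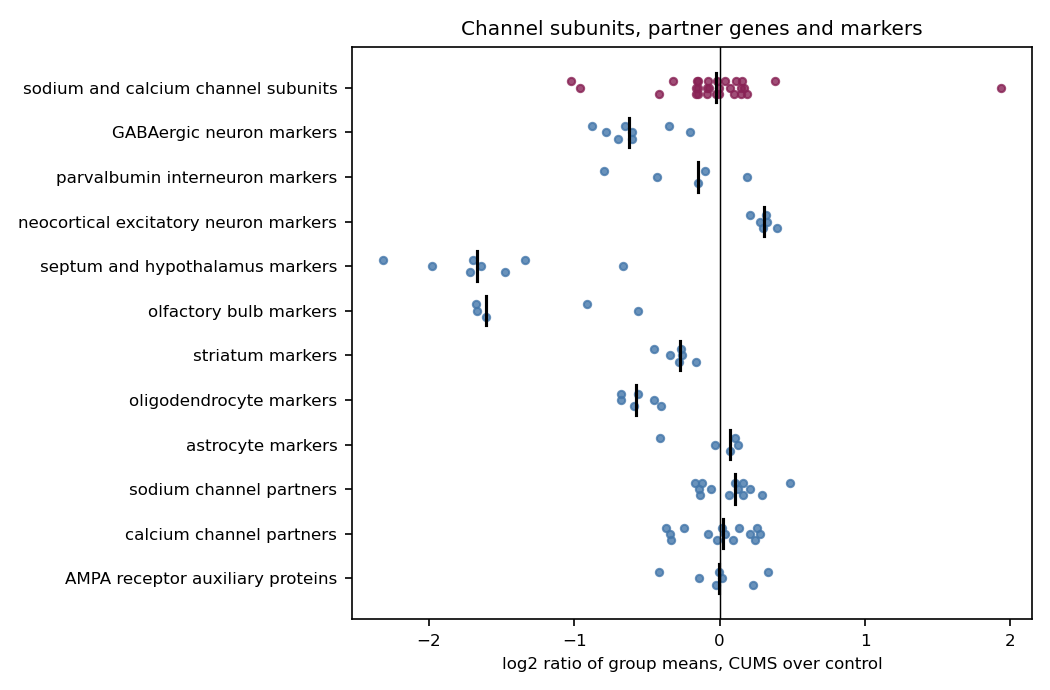
Log2 ratio of CUMS over control for each gene (points) and the median (bar) of the subunit genes, of marker lists and of partner lists, for genes of at least 0.5 RPKM with fragments in both groups. The subunit genes cluster near 0 with 2 low points (-1.02 and -0.96) and 1 high point (1.94); GABAergic, septum and hypothalamus, olfactory bulb, striatum and oligodendrocyte markers lie on the lower side, and excitatory neuron markers on the higher side. S100a5 has no point because it was listed at 0.01 in CUMS, and the olfactory bulb bar is the median of the other 5.

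Without Cacna2d2 and Cacng5, the remaining 27 genes of at least 0.5 RPKM had a median log2 ratio of -0.02 and 0 of them were lower by the fold. This grouping follows from their values and is a description. The summed RPKM of the 34 remaining genes was 1.95% higher in CUMS.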

How the data were processed

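Messenger RNA of the mPFC was sequenced in 2 control and 2 CUMS libraries, grouped by the sample labels. Per the study's methods, the authors sequenced poly(A) RNA as paired reads, trimmed them with SolexaQA and aligned them to mm10. The submitters' processing notes name TopHat 1.0.12 and Bowtie 0.11.3. Gene annotation and strand are not given in the sources used here. The deposited values are RPKM, which the authors averaged over the libraries of each group, beside the gene length in bases. The authors also deposited a log2 ratio and a probability for their own comparison, which were not used. The value 0.01, the lowest in the table, was treated as 0 (590 control and 619 CUMS genes).

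Log2 ratios of CUMS over control were computed on the means with Python 3.11.15, pandas 2.3.3 and SciPy 1.17.1. A gene counted as present at 0.5 RPKM in either group, and as past the fold above 1.5. The study names the same numbers, with a further limit on its probability that was not applied here. By its account, 17778 genes were left after those under 0.5 RPKM were removed. Of the 17778 genes here, 14257 reached 0.5 RPKM in either group, so its filter was not the one used here. Fragments were estimated from the step in the product of RPKM and length at low values (67.7 in control, 67.2 in CUMS), of which 86.5% and 86.2% lay within 0.15 of a whole number. This corresponds to about 7385524 and 7440476 fragments per library if the libraries of a group were equally deep. It is lower than the read numbers of the study, and the reason was not found. PCR duplicates are included, so intervals and limits (3 fragments) cover counting error only. The interval computation was tested on simulated counts that carried counting error only, with those counts and the step taken as known. That test does not check the fragment numbers estimated from the deposited RPKM. Every member of at least 0.5 RPKM was given in full. Of partner lists, the gene with the highest level and the extreme ratios among genes of at least 5 RPKM were named. Of marker lists other than skeletal muscle, counts, medians and ranges were given, and some single markers were named. Skeletal muscle markers were given by level. Of 38 genes that match the naming rule, 2 are not reported here and were left out of every count over the subunit genes. The members and lists were chosen with earlier results of these data known. Alternatives changed the expression minimum, the fold, the scaling, the pseudocount and the membership. Coordinates and promoters are from RefSeq GRCm38.p6 and exon overlaps from GENCODE M21.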

Additional observations from a re-analysis of the deposited data

How the results depend on the processing

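The number of subunit genes lower in CUMS by the fold was 2. It was 1 without Cacna2d2 and 1 with a fold above 2, which Cacng5 does not reach, and 2 or 3 under the other alternatives. The number higher was 1, Cacng6. It was 0 with a minimum of 1 RPKM, of 5 RPKM or of 0.5 RPKM in both groups, and 0 without genes under 20 estimated fragments in both groups, an alternative chosen after seeing the data. It was 4 with no minimum and 2 with the lower of the other fold limits tried. The median log2 ratio lay between -0.05 and -0.00. Scaling CUMS to an equal median moved every ratio by 0.02 and scaling to an equal total by -0.01. Both shifts are small beside the counting intervals, and they change the sign only of genes close to 0, here Cacna1i and Cacnb2. The upper interval limits of Scn1a (-0.0022) and Scn4b (-0.0017) pass 0 with the median shift (0.0151). With the total shift (-0.0062), the lower limit of Cacna1b (0.0043) passes 0. The numbers of intervals under and over 0 thus depend on the scaling. No paired analysis was possible because single libraries have no value of their own, and leaving out a library was not run for the same reason. Differences between mice cannot be seen, and genes under about 0.5 RPKM rest on few fragments.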
